A study of Homo sapiens with 12 samples.

Results

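Histone genes were read in poly(A)+ RNA of 3 human carcinoma cell lines kept in normoxia or in hypoxia. The genes were taken by symbol, as every row of the count table whose name begins with HIST1H to HIST4H, H2AF, H3F3 or H1F. This set was chosen with earlier results of these data known. The rule found 91 of 25369 rows. By symbol, 73 were classed as clustered, replication-dependent histone genes (6 for H1, 18 for H2A, 20 for H2B, 14 for H3 and 15 for H4). Another 17 were classed as replacement histone genes, and H1FX-AS1 is an antisense RNA at the H1FX gene. HIST1H2APS1, HIST2H2BA and HIST2H2BC in the clustered class and H3F3AP4 in the replacement class are annotated as pseudogenes.

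The samples are 12 strand-specific poly(A)+ RNA-seq libraries, with 2 libraries in each of 6 groups: RKO (colon carcinoma), A549 (lung adenocarcinoma) and H460 (large cell lung carcinoma), each held in normoxia or exposed to 1% O2 for 24 h. RKO and A549 were grown in DMEM and H460 in RPMI, all with fetal bovine serum, so for H460 medium and line cannot be told apart. Each library held between 27350424 and 41757584 counted reads. The labels number the 2 samples of a group but do not describe separate cultures. The paper's reporting summary describes its RNA-seq replicates as independent biological duplicates. The p-values measure the spread between these samples.

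Most mRNAs end in a poly(A) tail, and the clustered histone mRNAs are the classic exception. Their genes are copied during S phase, when new DNA has to be packed, and their mRNAs end just after a short RNA hairpin that is bound by SLBP and cut by a complex containing the U7 snRNP. Replacement histones are made throughout the cell cycle from ordinary polyadenylated mRNAs, and some clustered genes can also yield a longer, polyadenylated transcript, in particular in cells that have left the cycle.

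A library selected for poly(A) therefore reads the classes through different RNA ends, which makes the hairpin the first feature to look at. The search used 16 bases of GRCh37, with arms of 6 bases that begin with GG and end with CC (G:T pairs allowed) around a T-rich loop of 4 bases. The hairpin was found on the sense strand of 69 of the 73 clustered rows and 1 of the 17 replacement rows. These are counts of rows, and some rows share a site. HIST2H3A, HIST2H3C, HIST2H4A and HIST2H4B were given the same hairpin, and HIST2H2AA3 and HIST2H2AA4 another. A window of 100 bases on each side of the model's end held a hairpin in 61 clustered rows, and in 2 of 25004 other gene models (0.008%). The letters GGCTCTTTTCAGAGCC occurred in 43 members, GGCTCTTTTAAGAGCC in 10 and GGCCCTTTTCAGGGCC in 10, of which all are H4 genes. The genes below are shown because the results turn on them; the hairpin is in capitals with 5 bases on each side, 5′ to 3′ on the gene's strand.
HIST1H1C (chr6:26055972-26055987, minus strand): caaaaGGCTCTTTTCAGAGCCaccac
HIST1H2AH (chr6:27115325-27115340, plus strand): acaaaGGCTCTTTTCAGAGCCattct
HIST1H2BD (chr6:26158815-26158830, plus strand): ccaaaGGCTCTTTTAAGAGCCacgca
HIST1H2BK (chr6:27114145-27114160, minus strand): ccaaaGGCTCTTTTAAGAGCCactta
HIST1H4H (chr6:26285359-26285374, minus strand): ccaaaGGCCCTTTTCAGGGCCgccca
H2AFX (chr11:118965608-118965623, minus strand): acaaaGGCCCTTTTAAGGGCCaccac

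The hairpins of HIST1H1C and HIST1H2AH have the same 16 letters, as do those of HIST1H2BD and HIST1H2BK. What differs is the annotated end. The HIST1H1C model stops 4 bases after the hairpin and the HIST1H2AH model 1 base after it, whereas that of HIST1H2BD runs on for 12746 bases of genome (with an intron), that of HIST1H2BK for 8073 and that of H2AFX, the only replacement gene with a hairpin, for 1023. A clustered gene was said to have a long-end transcript when its deposited model, or a GENCODE transcript on the same strand, ended over 100 bases past the hairpin or, for HIST1H3E and HIST1H2APS1, in which no hairpin was found, past the deposited model. HIST2H4A and HIST2H4B, both without reads, count here only through the hairpin of HIST2H3A and HIST2H3C inside their long models. A long-end transcript was recorded in this way for 24 clustered rows and not for 49. For HIST1H2BF, HIST1H2BG and HIST1H4F no GENCODE transcript was found, so only the deposited model was judged. At HIST1H2AM, GENCODE places transcripts of H2AC17 and H3C12, and only 1 of them ended over 100 bases past the hairpin. That long end may therefore belong to the neighbouring gene. The division was made after the values were seen, so it is used only to describe.

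Few reads came from clustered genes. They took between 3.98% (RKO hypoxia, replicate 2) and 17.9% (H460 hypoxia, replicate 1) of the reads on histone rows, and the median clustered row had 218 reads summed over all 12 libraries. There were 12 clustered and 6 replacement rows with 0 reads in every library, which allows up to 3 reads per library. Among these are HIST2H2AA3, HIST2H2AA4, HIST2H3A, HIST2H3C, HIST2H4A and HIST2H4B, whose models overlap or repeat others, so that reads that fit more than 1 model were not counted. H3F3A, which encodes histone H3.3, had only 2 to 8 reads per library. Its model overlaps H3F3AP4 on the same strand and has 2 near-identical copies in the genome, so its value is uncertain; H3F3B, the other H3.3 gene, was counted fully.

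Summed reads are given per 1000000 counted reads of the library (RPM). In RKO, the clustered class fell from 121 and 89.3 RPM in normoxia (replicates 1 and 2) to 84.6 and 68.9 in hypoxia. In A549 they were 142 and 119 RPM in normoxia and 142 and 199 in hypoxia, and the groups overlapped. On the TMM scale the A549 groups did not overlap, at 136.1 and 111.7 in normoxia and 141.5 and 206.7 in hypoxia. In H460 they were 150 and 183 RPM in normoxia and 224 and 191 in hypoxia. The H460 sum was carried by HIST1H1C, which encodes linker histone H1.2 and took 13.01% of the class in normoxia and 47.0% in hypoxia.

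Without HIST1H1C, the clustered genes with no long-end transcript went the other way in H460. They had 42.1 and 61.4 RPM in normoxia and 21.3 and 16.1 in hypoxia. In RKO the values were 53.4 and 31.8 in normoxia and 23.7 and 13.2 in hypoxia, again with no overlap between the groups. A549 stood apart, with 19.8 and 10.1 RPM in normoxia and 9.12 and 19.7 in hypoxia. The sums of genes with a long-end transcript overlapped between the conditions in RKO and H460 and were higher in both hypoxia libraries of A549. Their reads were 44.4 and 33.8 RPM in normoxia and 44.8 and 36.2 in hypoxia in RKO, and 87.4 and 98.8 against 93.2 and 88.9 in H460. In A549 they were 89.6 and 76.0 in normoxia and 93.5 and 124 in hypoxia. The A549 difference rests on HIST1H4H, which took 10.09% of all clustered reads in A549 hypoxia. Without the reads of this gene the A549 groups overlap too. On the TMM scale the H460 sum of the genes with a long-end transcript rose as well, from a mean of 89.3 to 113. Fewer cells in S phase and less histone mRNA per cell cannot be told apart in such libraries.

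**Figure D1:**
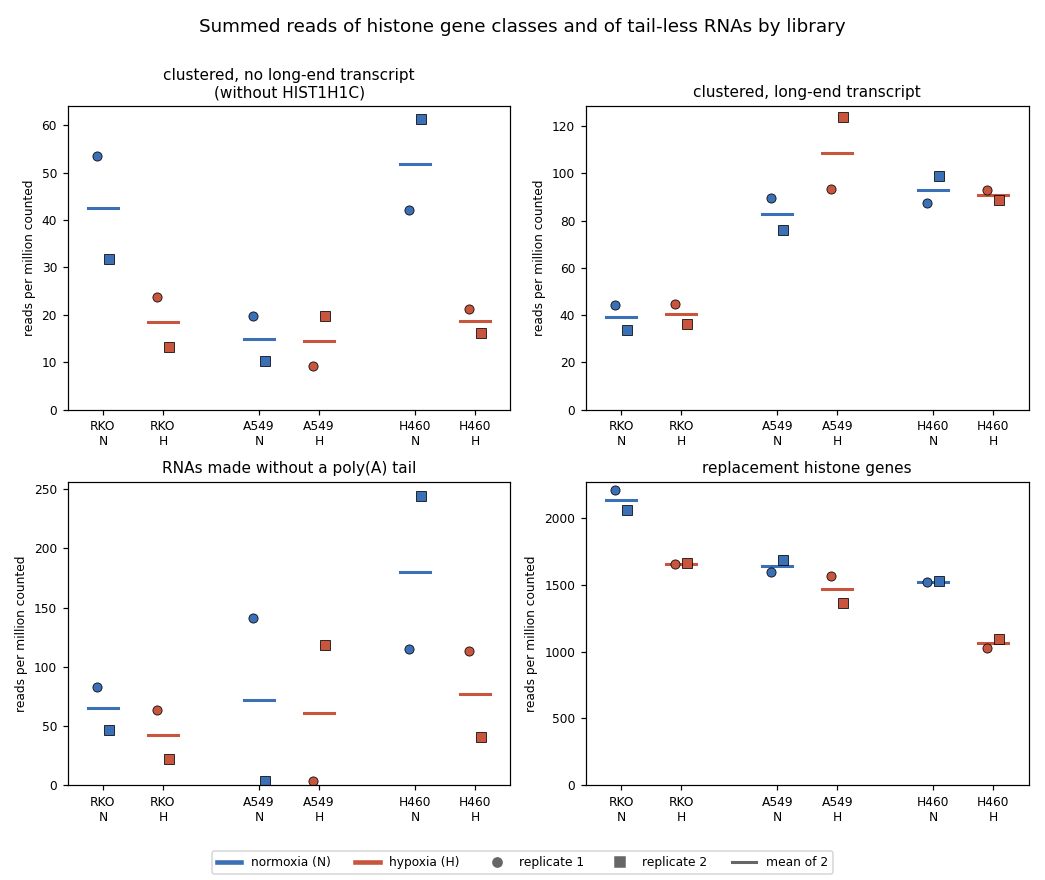
RPM summed over 4 sets of genes, in each library (y axes start at 0; circles are replicate 1, squares replicate 2, bars the mean of 2; N is normoxia and H hypoxia). Clustered genes with no long-end transcript, HIST1H1C left out, were lower in hypoxia in RKO and H460, and within each group the replicate with more reads from them is also the one with more RNA made without a tail.

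How much tail-less RNA a poly(A) selection lets through can differ between libraries, so RNAs that are made without a poly(A) tail were read beside the histone genes. Of 21 such RNAs listed, 10 had a row, and most of their reads came from RMRP and RPPH1, the RNA parts of RNase MRP and RNase P. Their sum was 82.8 and 46.7 RPM in RKO normoxia and 63.2 and 21.9 in RKO hypoxia. It was 141 and 3.55 in A549 normoxia and 3.76 and 118 in A549 hypoxia, a difference of 39.7-fold between the normoxia replicates. In H460 it was 115 and 244 in normoxia and 113 and 40.7 in hypoxia. The library of a group that had more of this RNA also had more reads from clustered genes without a long end, in 6 of 6 groups, and more from those with a long end, also in 6 of 6 groups.

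The tail-less RNAs therefore moved with the clustered genes, and in part with hypoxia. RMRP was called lower in H460 hypoxia (log2 fold change -0.92 ± 0.37 (SE), adjusted p = 0.0393), as was RPPH1 (-0.81 ± 0.42, adjusted p = 0.0987), although the groups overlapped for both. Libraries with a like amount of tail-less RNA can be set side by side, as a description of pairs chosen after the values were seen. H460 normoxia replicate 1 and hypoxia replicate 1 had 115 and 113 RPM from these RNAs. In the hypoxia library the clustered genes without a long end (HIST1H1C left out) had 0.505 times as many reads. Among those with a mean of at least 20 reads, 16 of 21 rows were lower. Against TMM, scaling by library totals moved the log2 fold changes of all H460 genes tested by -0.35 (median). On the TMM scale this pair was less alike, at 111.8 and 143.9 for the tail-less RNAs. The clustered genes without a long end then stood at 40.85 in normoxia and 27.09 in hypoxia. RKO normoxia replicate 2 and hypoxia replicate 1 had 46.7 and 63.2 RPM of tail-less RNA, and the ratio of reads was 0.744, with 15 of 19 rows lower. The share of all genes that were lower in the H460 pair or the RKO pair was not computed, so these row counts have no background. The A549 pairs gave ratios of 0.991 (normoxia replicate 1 and hypoxia replicate 2) and 0.901 (normoxia replicate 2 and hypoxia replicate 1).

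Gene by gene, each line was tested on its own 4 libraries with edgeR's quasi-likelihood test, on genes over 0.5 counts per 1000000 counted reads (CPM) in at least 2 libraries. A gene is called here when its Benjamini-Hochberg adjusted p over all genes tested was under 0.1 and its fold change over 1.5. CPM values are scaled by TMM over the 12 libraries, and errors are the SD of 2 replicates for CPM and the SE for log2 fold changes.

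The count filter was passed by 36 of the 73 clustered rows in RKO, by 28 in A549 and by 42 in H460. Of the RKO rows, 17 were called lower, against 15.1% of all genes tested, and 2 higher, against 18.8%. In A549, 2 were called higher, against 2.22%, and 0 lower, against 0.456% (edgeR; also 0 by DESeq2 and 0 at an unadjusted p under 0.05). In H460, 25 were called lower, against 27.3%, and 7 higher, against 24.6%. For RKO, A549 and H460 in turn, the clustered genes tested had median log2 fold changes of -1.04, 0.21 and -1.03, and all genes tested 0.01, -0.01 and -0.04.

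These counts cannot serve as support on their own, because 4 clustered rows in RKO and 11 in H460 passed the filter only through their normoxia libraries and none only through hypoxia. Over all 73 rows, the hypoxia mean lay below the normoxia mean in 46 and above it in 7 in RKO, in 40 and 14 in H460, and in 26 and 30 in A549, and the other rows had no reads in that line. With a filter on the mean of the 4 libraries instead, added after the data were seen, 17 rows were called lower in RKO and 23 in H460.

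The RKO count rests on single libraries. Without normoxia replicate 1, which had the most tail-less RNA in that line, 0 of the clustered rows were called lower, and without hypoxia replicate 2, which had the least, 8 were. In H460, 12 were called lower without normoxia replicate 2, which had the most tail-less RNA of all libraries. With the amount of tail-less RNA as a covariate, also added after the data were seen, 10 rows were called lower in RKO and 15 in H460, and the medians were -0.59 and -0.53. That fit leaves 1 degree of freedom among 4 libraries.

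**Figure D2:**
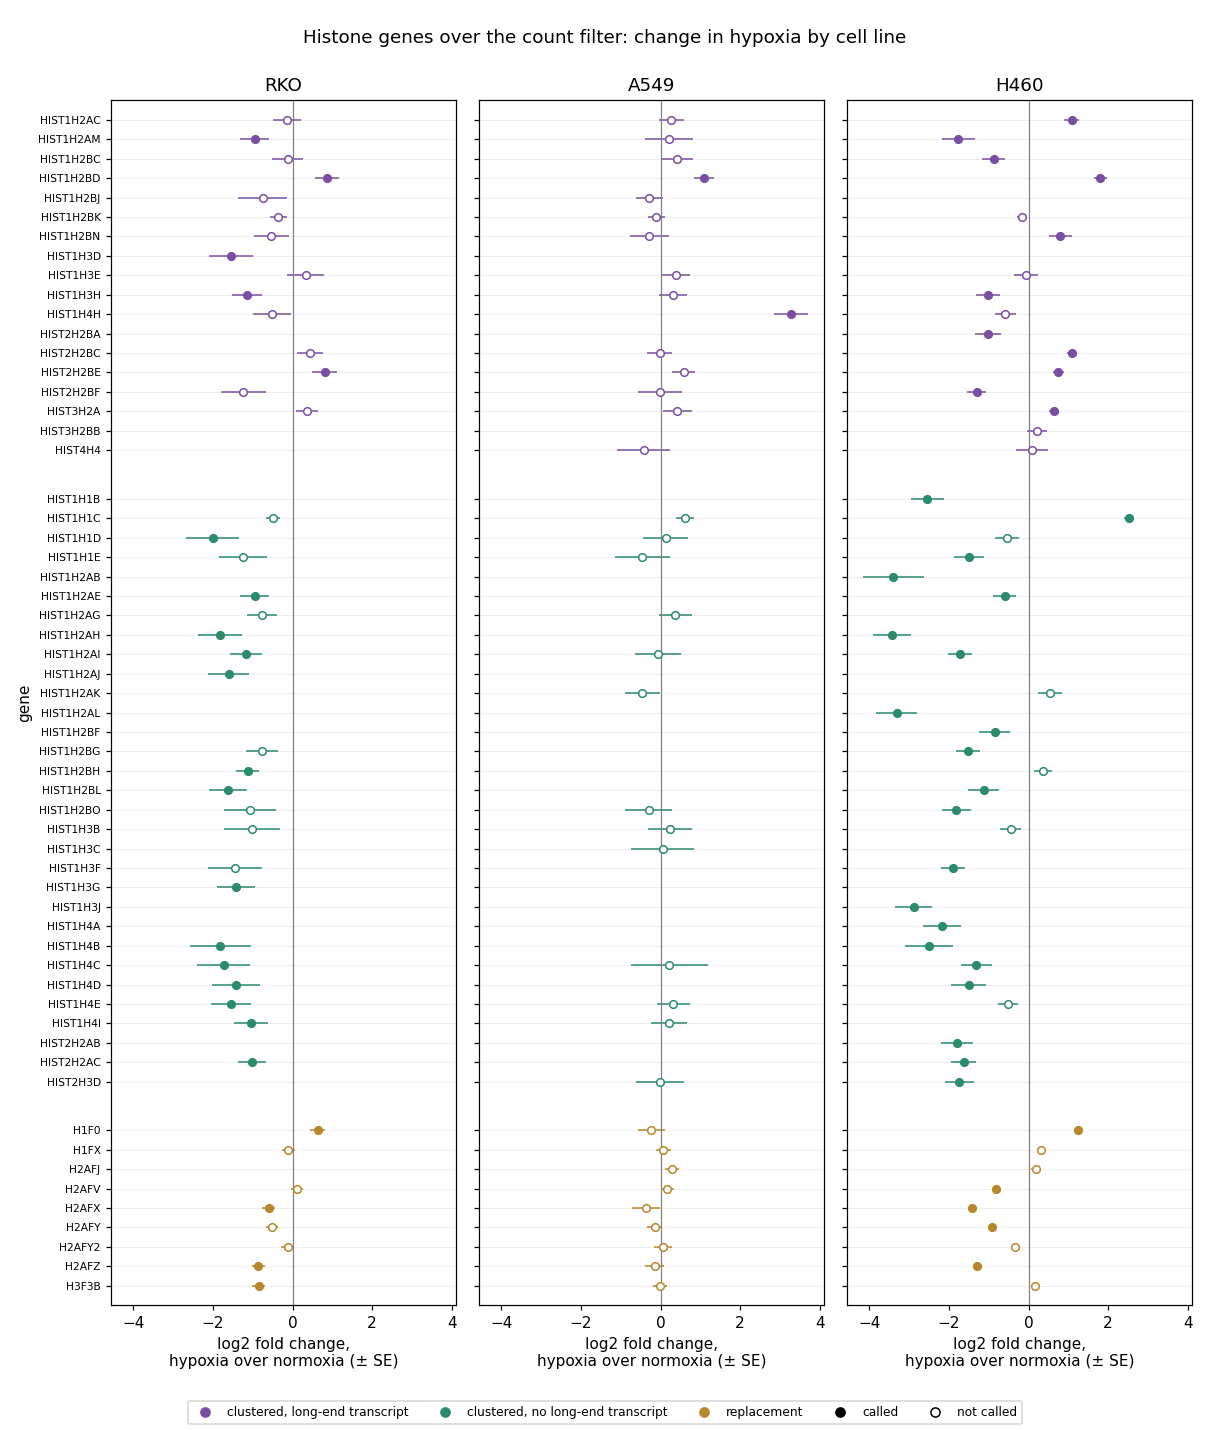
Log2 fold change of hypoxia over normoxia (x axis, bars are SE) for the histone genes that passed the count filter, in 3 panels for the lines. Filled points were called and open points were not; genes without a point in a panel had too few reads there, and clustered genes with no long-end transcript lie left of 0 throughout RKO.

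Among the 49 clustered rows without a long-end transcript, the hypoxia mean was lower in 34 and higher in 0 in RKO, with 15 rows unread. In H460 it was lower in 30 and higher in 5, and in A549 lower in 20 and higher in 18. In the tests, 14 of 21 were called lower and 0 higher in RKO, where 15.1% and 18.8% of all genes tested were. In H460, 20 of 26 were called lower and 1, HIST1H1C, higher, against 27.3% and 24.6%. These calls include all 4 RKO and all 11 H460 rows that passed the filter through normoxia alone, so the counts are a description. All 5 histone types took part: rows called lower in both RKO and H460 included the H2A genes HIST1H2AE, HIST1H2AH, HIST1H2AI and HIST2H2AC, the H2B gene HIST1H2BL and the H4 genes HIST1H4B, HIST1H4C and HIST1H4D, while HIST1H1D (H1) was called in RKO alone and HIST1H3J (H3) was tested only in H460. Of the rows named, HIST1H2BL and HIST1H4B passed the filter only through normoxia in both lines, and HIST1H2AH and HIST1H4D did so in H460. HIST1H2AE was a weak call in H460, where its groups overlapped (log2 fold change -0.60 ± 0.29, adjusted p = 0.0823). With the tail-less RNA covariate it was at 0.0495, and the call was lost without normoxia replicate 2 (-0.24) or hypoxia replicate 2 (-0.32).

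HIST1H2AH had 65 and 35 reads in RKO normoxia and 23 and 7 in hypoxia. In H460 it had 30 and 49 reads in normoxia and 3 and 3 in hypoxia, and the groups did not overlap in either line. The log2 fold change was -1.83 ± 0.54 in RKO (adjusted p = 0.0223) and -3.43 ± 0.48 in H460 (adjusted p = 4.64e-05). In A549, where it had 23 and 5 reads in normoxia and 8 and 17 in hypoxia, it was not tested. The RKO call was lost without normoxia replicate 1, when the log2 fold change was -1.26.

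HIST1H3J had 33 and 66 reads in H460 normoxia and 7 and 4 in hypoxia (log2 fold change -2.89 ± 0.47, adjusted p = 0.000146). HIST1H1B, the gene of linker histone H1.5, had 30 and 54 reads in H460 normoxia and 6 and 6 in hypoxia (-2.54 ± 0.43, adjusted p = 0.000198), and 0 reads in all 8 libraries of the other lines. HIST1H4B had 24 and 73 reads in H460 normoxia and 11 and 3 in hypoxia (-2.50 ± 0.59, adjusted p = 0.00243). Its call went with the tail-less RNA covariate, at -0.87. In each of these genes both hypoxia libraries of H460 lay below both normoxia libraries. In H460 these genes and HIST1H2AH entered the test only through the normoxia libraries, where they are high, so their p-values carry that selection; with the filter on the mean they were called as well.

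The changes in RKO had larger errors. HIST1H1D (histone H1.3) had 83 and 22 reads in normoxia and 21 and 7 in hypoxia (log2 fold change -2.00 ± 0.66, adjusted p = 0.0352), and without normoxia replicate 1 it was at -0.69 and not called. HIST1H2BL had 44 and 29 reads in normoxia and 15 and 10 in hypoxia (-1.62 ± 0.47, adjusted p = 0.0192), and it too entered the test through normoxia alone. HIST1H2BH was the most read of these genes in RKO, with 356 and 290 reads in normoxia and 198 and 118 in hypoxia (-1.12 ± 0.29, adjusted p = 0.0112). Without normoxia replicate 1 it was at -0.92 and not called.

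Clustered genes with a long-end transcript split in both directions. Of 16 tested in H460, 6 were called higher, against 24.6% of all genes tested, and 5 lower, against 27.3%. Of 15 tested in RKO the numbers were 2 and 3, against 18.8% and 15.1%, and of 15 in A549 2 and 0, against 2.22% and 0.456%. Over all 24 rows the hypoxia mean was above the normoxia mean in 7 and below it in 12 in RKO, in 12 and 6 in A549, and in 9 and 10 in H460.

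HIST1H2BD, an H2B gene on chromosome 6 (26158349 to 26171576), was called higher in all 3 lines. Its CPM was 4.25 and 2.74 in RKO normoxia and 7.74 and 5.57 in hypoxia, 11.5 and 7.97 against 19.3 and 22.7 in A549, and 3.48 and 3.66 against 12.4 and 12.9 in H460. Both hypoxia libraries were above both normoxia libraries in each line. The log2 fold change was 0.87 ± 0.30 in RKO (adjusted p = 0.0440), 1.09 ± 0.25 in A549 (adjusted p = 0.0850) and 1.81 ± 0.15 in H460 (adjusted p = 7.72e-07). The A549 call is at the edge of the threshold and was lost with library size scaling, and the RKO and A549 calls were each lost when either of 2 libraries was left out (in RKO normoxia replicate 2 or hypoxia replicate 1, in A549 replicate 2 of either condition).

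HIST2H2BE, an H2B gene on chromosome 1 (149856010 to 149858232), had 3.51 and 2.28 CPM in RKO normoxia and 6.31 and 4.24 in hypoxia (log2 fold change 0.80 ± 0.32, adjusted p = 0.0706). In H460 it had 9.65 and 11.7 CPM in normoxia and 20.2 and 16.3 in hypoxia (0.75 ± 0.15, adjusted p = 0.000632). In A549 the values were 6.07 and 6.67 in normoxia and 7.30 and 12.01 in hypoxia, and the gene was not called (0.58 ± 0.29, adjusted p = 0.361). Scaling of H460 by library size alone moved the log2 fold changes of all genes tested by -0.35 (median), and HIST2H2BE was then at 0.40 and not called.

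Other members rose in H460 only by call. HIST2H2BC went from 8.12 and 7.53 CPM in normoxia to 16.8 and 16.8 in hypoxia (log2 fold change 1.09 ± 0.13, adjusted p = 1.25e-05). HIST1H2AC went from 2.73 and 3.05 CPM to 6.71 and 5.77 (1.09 ± 0.19, adjusted p = 0.000281). HIST3H2A went from 10.1 and 9.70 CPM to 15.7 and 15.3 (0.63 ± 0.13, adjusted p = 0.000742), a call that library size scaling removed, at 0.28. The difference between lines passed the interaction test (adjusted p under 0.05) for HIST2H2BC (adjusted p = 0.0499) and not for HIST1H2AC (0.113) or HIST3H2A (0.853). HIST2H2BC is annotated today as a pseudogene and has 1 near-identical copy, so its reads may belong in part to that copy.

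HIST1H2BK was the most abundant clustered H2B gene per length in 5 of the 6 groups and was not called in any line. The exception was RKO normoxia, where HIST1H2BH was higher at 20.9 RPKM. Its RPKM (CPM per kilobase of gene model, not TMM-scaled) averaged 14.7, 42.6 and 39.7 in normoxia in RKO, A549 and H460 and 12.1, 37.3 and 27.6 in hypoxia. The log2 fold changes were -0.36 ± 0.22, -0.10 ± 0.21 and -0.17 ± 0.11. HIST1H2BK has 1 near-identical copy elsewhere in the genome, so its level and rank are uncertain.

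HIST1H1C had the largest rise in H460 among the clustered genes tested there. Its CPM was 19.96 and 21.8 in normoxia and 140 and 104 in hypoxia, a log2 fold change of 2.52 ± 0.13 (adjusted p = 1.68e-08) or 5.75-fold. In A549 it was 31.6 and 30.8 in normoxia and 38.9 and 57.4 in hypoxia, with no overlap but no call (0.61 ± 0.22, adjusted p = 0.229). In RKO it was lower in both hypoxia libraries, with 22.3 and 21.99 CPM against 15.6 and 17.3, and below the fold threshold (-0.49 ± 0.18, adjusted p = 0.0552). The effect differed between lines (interaction adjusted p = 2.76e-05). Per length, HIST1H1C reached 134 RPKM in hypoxic H460 there, beside 153 RPKM for H1F0, the replacement linker histone H1.0. The call in H460 held in every alternative run, the tail-less RNA covariate and each left-out library included. The covariate fit leaves only 1 degree of freedom among 4 libraries. The annotation used gives HIST1H1C no end beyond its hairpin, and the cause of its rise was not tested.

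HIST1H4H, an H4 gene on chromosome 6 (26285354 to 26285727), rose in A549. It had 83 and 69 reads in A549 normoxia and 418 and 896 in hypoxia, a log2 fold change of 3.27 ± 0.44 (adjusted p = 0.00924) or 9.67-fold. In RKO it had 59 and 30 reads against 46 and 21, and in H460 57 and 72 against 36 and 37, with log2 fold changes of -0.51 ± 0.48 and -0.58 ± 0.26 that were not called. The difference between A549 and H460 was 3.86 ± 0.64 on the log2 scale, and that between RKO and A549 -3.73 ± 0.66 (interaction adjusted p = 0.000658). The A549 hypoxia libraries stood at 10.0 and 26.1 CPM, in the order of their tail-less RNA. The hypoxia library with the lower value had as little tail-less RNA (3.76 RPM) as normoxia replicate 2 (3.55), and HIST1H4H stood at 10.0 CPM in the first and 1.69 in the second. This pair of single libraries was picked after the values were seen, and the cause of the rise was not tested.

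**Figure D3:**
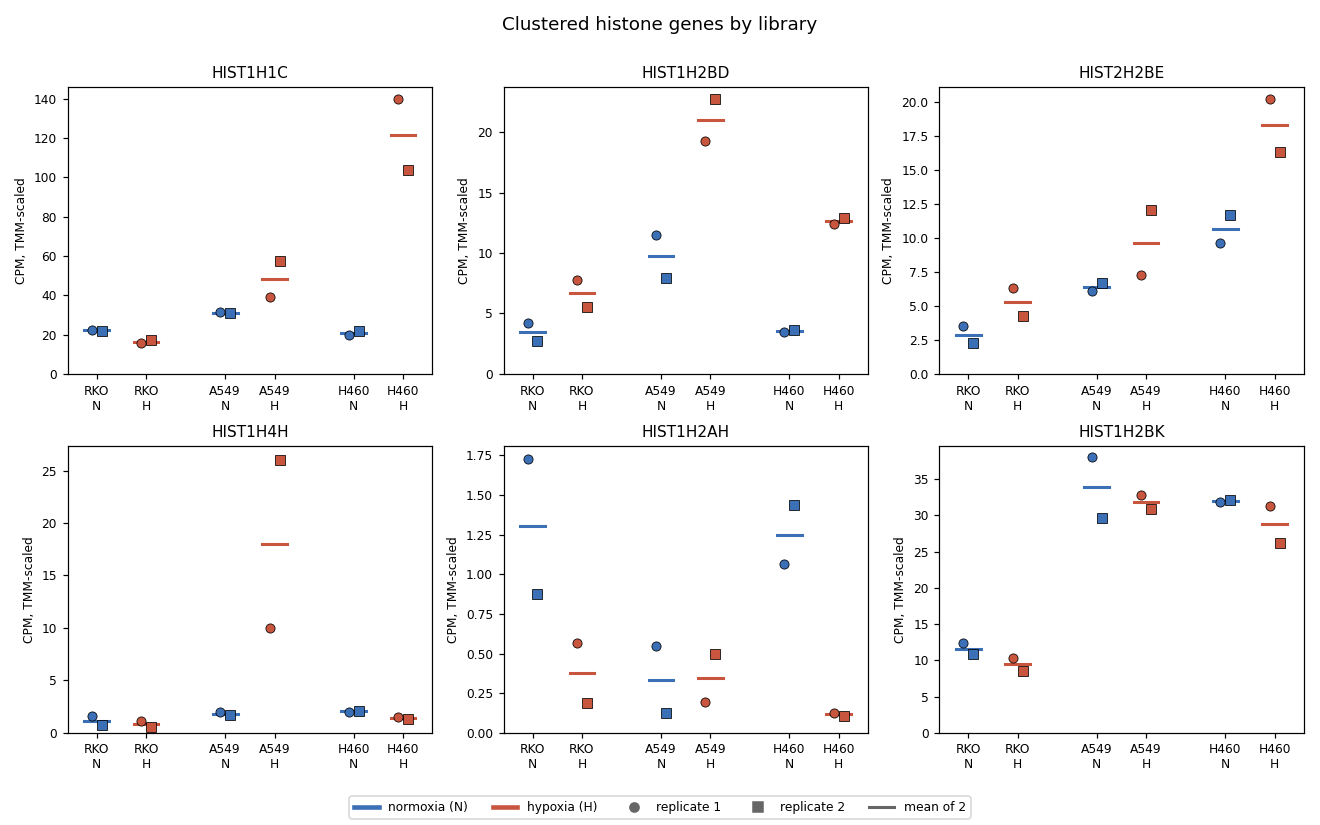
TMM-scaled CPM of 6 clustered histone genes in each library (y axes start at 0; circles are replicate 1, squares replicate 2, bars the mean of 2; N is normoxia and H hypoxia). HIST1H1C reached 140 and 104 CPM in H460 hypoxia, HIST1H4H 10.0 and 26.1 CPM in A549 hypoxia, and HIST1H2BD was higher in hypoxia in all lines.

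Of the clustered genes, 5 of 50 in the joint fit had a hypoxia effect that differed between lines, against 38.4% of all genes tested. Beside HIST1H1C, HIST1H4H and HIST2H2BC these were HIST1H2BH (adjusted p = 0.0280) and HIST1H3H (adjusted p = 0.0477). HIST1H2BH fell in RKO, had too few reads in A549 for a test there, and had 59 and 82 reads in H460 normoxia against 76 and 78 in hypoxia (log2 fold change 0.37 ± 0.23, not called). HIST1H3H, an H3 gene, was called lower in RKO (-1.14 ± 0.37, adjusted p = 0.0321), likewise in H460 (-1.02 ± 0.30, adjusted p = 0.00856), and was at 0.31 ± 0.35 in A549. The small counts of most clustered genes bound what this test can show: the median SE of their log2 fold change was 0.46, 0.43 and 0.30 in RKO, A549 and H460, against 0.18, 0.22 and 0.11 for all genes tested.

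In normoxia, 40 of 50 clustered genes differed in level between the lines, against 85.2% of all genes tested. Some of these differences were of presence. There were 12 clustered rows with 3 or fewer reads in the 4 libraries of 1 line and at least 50 in another, and 0 replacement rows. That contrast depends on the cut, since the replacement gene H2AFJ had 12 reads in RKO and 15960 in A549. The share of all genes that meet the rule was not computed. HIST1H2AE, an H2A gene, had 333 reads in RKO, 294 in H460 and 0 in A549. HIST1H2AG, another H2A gene, had 335 reads in A549, 206 in RKO and 0 in H460, and HIST1H4I, an H4 gene, had 105, 98 and 0.

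HIST1H1B (chromosome 6, 27834570 to 27835359) and its neighbour HIST1H2AL (27833107 to 27833576) had 96 and 79 reads in H460, and 0 and 0 in RKO. HIST1H3G, an H3 gene, had 154 reads in RKO, 9 in A549 and 0 in H460. For each of these genes the line without reads had them from other clustered genes of the same type. An absence of reads in poly(A)+ libraries does not show an absence of the RNA.

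**Figure D4:**
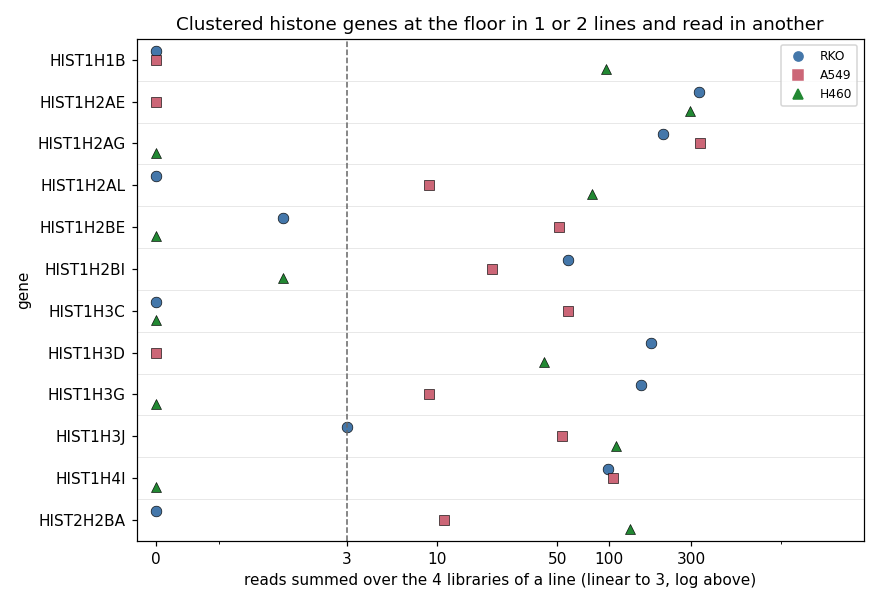
Reads summed over the 4 libraries of a line (x axis, linear to 3 and logarithmic above) for the 12 clustered histone genes with 3 or fewer reads in 1 line and at least 50 in another. The dashed line marks 3 reads; HIST1H2AE is at 0 in A549 and at 333 and 294 in RKO and H460, and HIST1H1B has reads in H460 alone.

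Replacement histone genes were read far more deeply. Their sum was 2216 and 2060 RPM in RKO normoxia and 1656 and 1663 in hypoxia, 1595 and 1686 against 1570 and 1369 in A549, and 1524 and 1529 against 1028 and 1097 in H460. On the TMM scale the H460 fall was smaller, from a mean of 1466 to 1316. Of the 17 rows, 9 passed the count filter in at least 1 line and 8 in all. In RKO, 3 of 8 were called lower and 1 higher, against 15.1% and 18.8% of all genes tested. In H460, 4 of 9 were called lower and 1 higher, against 27.3% and 24.6%, and in A549 0 in either direction of 9 (edgeR and DESeq2; 0 at an unadjusted p under 0.05).

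H2AFZ, the gene of H2A.Z, a variant found at promoters, had the highest RPKM of the replacement genes in all 6 groups. Its CPM was 547 and 483 in RKO normoxia and 294 and 299 in hypoxia, and 462 and 440 in H460 normoxia and 179 and 194 in hypoxia. The log2 fold change was -0.86 ± 0.16 in RKO (adjusted p = 0.00203) and -1.29 ± 0.09 in H460 (adjusted p = 1.88e-07). In A549 the groups overlapped, with 353 and 263 CPM in normoxia and 338 and 223 in hypoxia.

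H2AFV, which encodes a second form of H2A.Z, changed in H460 alone by call. It had 157 and 154 CPM in normoxia and 85.5 and 91.9 in hypoxia (log2 fold change -0.83 ± 0.09, adjusted p = 4.11e-06). It was higher in both hypoxia libraries of RKO (164 and 169 against 184 and 194) and of A549 (132 and 127 against 158 and 137), without a call. The effect differed between lines (interaction adjusted p = 0.000955).

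H2AFX encodes H2A.X, which is phosphorylated around DNA breaks, and its gene is the only replacement one with the hairpin shown above. It had 143 and 160 CPM in RKO normoxia and 97.1 and 111 in hypoxia (log2 fold change -0.60 ± 0.16, adjusted p = 0.0114), a call just past the fold threshold that library size scaling removed. In H460 it had 67.2 and 63.5 CPM in normoxia and 24.4 and 25.2 in hypoxia (-1.41 ± 0.09, adjusted p = 1.04e-07). In A549 the values were 141 and 64.8 in normoxia and 100 and 62.0 in hypoxia.

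H2AFY and H2AFY2 encode the macroH2A histones, which are linked to silent chromatin. H2AFY had 214 and 194 CPM in RKO normoxia and 144 and 153 in hypoxia, below the fold threshold (log2 fold change -0.52 ± 0.15, adjusted p = 0.0198), and 201 and 194 against 106 and 106 in H460, where it was called (-0.92 ± 0.08, adjusted p = 1.40e-06). H2AFY2 was not called in any line.

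H3F3B showed another pattern over the lines. Its CPM was 726 and 631 in RKO normoxia and 414 and 372 in hypoxia (log2 fold change -0.85 ± 0.16, adjusted p = 0.00267). In A549 it was 367 and 370 against 379 and 358, and in H460 267 and 265 against 297 and 302, with log2 fold changes of -0.02 ± 0.17 and 0.16 ± 0.09. RKO and H460 differed by -0.96 ± 0.19 (interaction adjusted p = 0.00283).

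H1F0, the linker histone gene named above, went in the opposite direction to H2AFZ. It had 210 and 163 CPM in RKO normoxia and 346 and 254 in hypoxia (log2 fold change 0.63 ± 0.19, adjusted p = 0.0240), a call that was lost without normoxia replicate 2 or hypoxia replicate 1. In H460 it had 173 and 196 CPM in normoxia and 452 and 431 in hypoxia (1.24 ± 0.10, adjusted p = 3.19e-07). In A549 the normoxia replicates were 164 and 405 and enclosed the hypoxia values of 216 and 275. H1FX, the linker histone H1.10, was not called in any line.

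**Figure D5:**
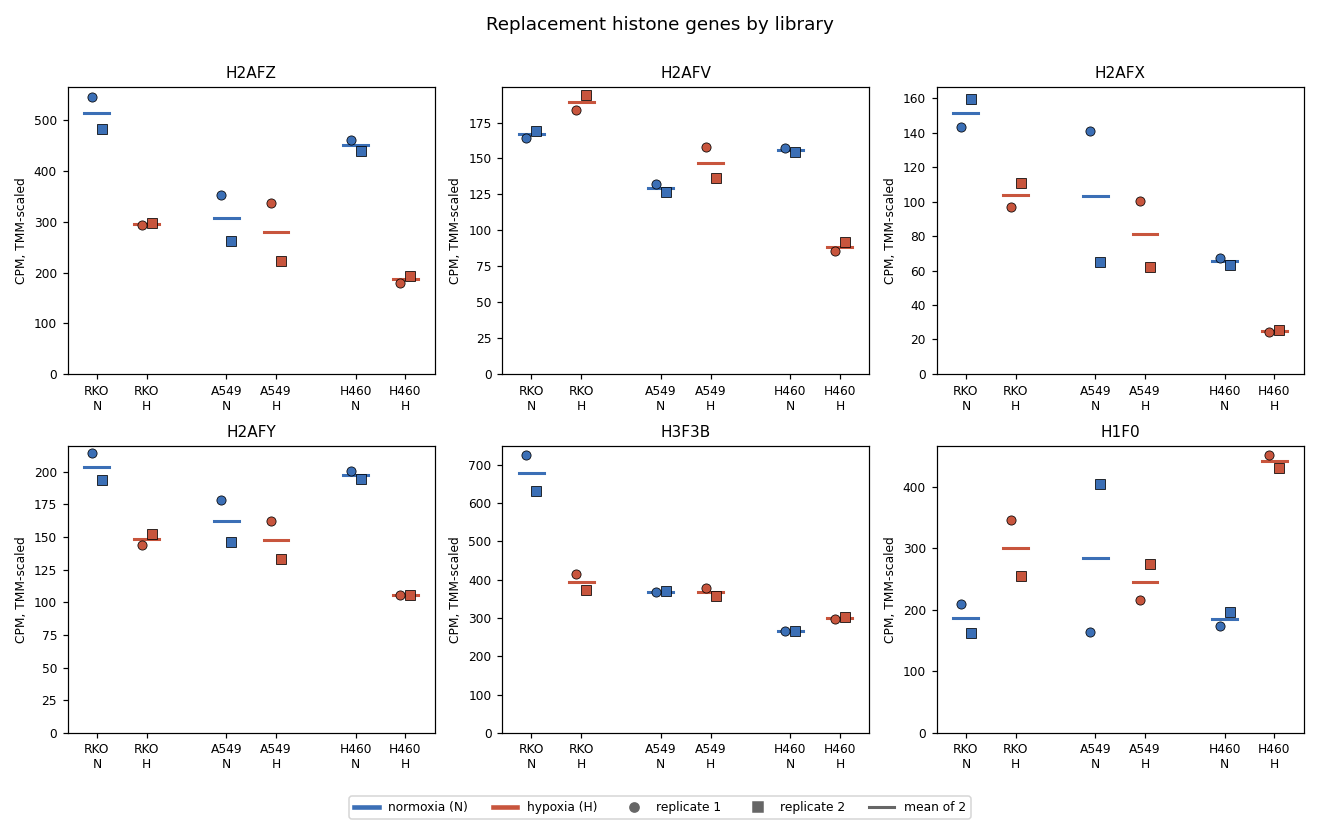
TMM-scaled CPM of 6 replacement histone genes in each library (y axes start at 0; circles are replicate 1, squares replicate 2, bars the mean of 2; N is normoxia and H hypoxia). H2AFZ, H2AFX and H2AFY were lower and H1F0 higher in hypoxia in both RKO and H460, H2AFV was lower in H460 and H3F3B in RKO, and A549 shows overlapping groups except for H2AFV.

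The hypoxia effect differed between lines for 5 of 9 replacement genes (H1F0, H2AFV, H2AFY, H2AFZ and H3F3B), against 38.4% of all genes. In normoxia 7 of 9 differed in level. The widest gap was that of H2AFJ, an H2A variant gene of which RKO had 1 to 5 reads per library, H460 290 to 391 and A549 3643 to 4296. It was not called in A549 or H460 and not tested in RKO. The antisense RNA H1FX-AS1 was called lower in H460, with 8.16 and 10.1 CPM in normoxia and 5.32 and 6.61 in hypoxia (log2 fold change -0.63 ± 0.18, adjusted p = 0.00672), while H1FX itself had 113 and 104 CPM against 132 and 140.

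Genes that make and use histones were read from lists. The shares to read their counts against are those over all genes tested, which were 27.3% lower and 24.6% higher in H460, 15.1% and 18.8% in RKO, and 0.456% and 2.22% in A549. Of 16 genes of histone pre-mRNA processing, 10 were called lower and 1 higher in H460, 7 lower and 1 higher in RKO, and 0 in A549 (edgeR; 0 by DESeq2 and 1 at an unadjusted p under 0.05). SLBP, which binds the hairpin, went from 53.2 ± 1.9 to 23.7 ± 2.5 CPM in H460 (log2 fold change -1.19 ± 0.10, adjusted p = 8.22e-07) and from 107 ± 2 to 96.2 ± 9.5 in RKO, without a call. NPAT and CASP8AP2, which drive histone transcription at the histone locus body, were called lower in H460 (-0.65 ± 0.12 and -1.23 ± 0.11) and not in RKO (0.12 ± 0.15 and 0.05 ± 0.18).

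The subunits of the U7 snRNP went in opposite directions. LSM10 fell in RKO (log2 fold change -0.89 ± 0.17, adjusted p = 0.00249) and H460 (-1.56 ± 0.13, adjusted p = 5.73e-07), and LSM11 rose in both (0.59 ± 0.24, adjusted p = 0.0730, and 0.83 ± 0.13, adjusted p = 0.000136). The LSM11 call in H460 was lost with library size scaling, at 0.48. In RKO the LSM11 call was just past the fold threshold and was lost with the replicate number as a block. ZNF473, a further U7 partner, fell in RKO alone by call (-0.87 ± 0.19, adjusted p = 0.00494).

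Of 26 genes of DNA replication and S phase, 23 were called lower and 0 higher in H460, 10 lower and 1 (TK1) higher in RKO, and 0 in A549 (edgeR; 1 by DESeq2 and 2 at an unadjusted p under 0.05, all lower). In H460, PCNA, the sliding clamp of DNA polymerase, was at -2.51 ± 0.09 on the log2 scale (adjusted p = 1.62e-09), and CCNE2, a cyclin of S phase entry, at -3.30 ± 0.20 (adjusted p = 4.84e-08). In RKO the calls were mainly of the replicative helicase, such as MCM2 (-0.72 ± 0.15, adjusted p = 0.00385), while RRM2, a subunit of ribonucleotide reductase, was at -0.13 ± 0.15. In A549 the replicates lay far apart and followed their number, with PCNA at 325 and 168 CPM in normoxia and 269 and 163 in hypoxia, and MCM2 at 134 and 87.9 against 105 and 59.6. Their log2 fold changes were -0.20 ± 0.32 and -0.44 ± 0.29, so that a fall of this size could not be told from the spread.

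Among 23 histone chaperones, 9 were called lower and 3 higher in H460 (27.3% and 24.6% of all genes), 6 lower and 2 higher in RKO (15.1% and 18.8%), and 0 in A549 (edgeR; 0 by DESeq2, and 1 higher and 1 lower at an unadjusted p under 0.05). CHAF1A, which deposits H3 and H4 at replication forks, fell in H460 (log2 fold change -2.26 ± 0.12, adjusted p = 2.14e-08) and RKO (-0.61 ± 0.15, adjusted p = 0.00853). HIRA, which deposits H3.3, also fell in H460 (-1.15 ± 0.09, adjusted p = 4.53e-07) and RKO (-0.73 ± 0.16, adjusted p = 0.00482). HJURP, the chaperone of the centromeric H3 variant CENPA, was called higher in RKO (0.91 ± 0.17, adjusted p = 0.00223), likewise in H460 (0.76 ± 0.09, adjusted p = 8.77e-06), and CENPA itself was not called in any line.

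Of the inhibitors of the cell cycle and genes of exit from it, 10 of 12 in RKO and 9 of 11 in H460 were called higher and 0 lower, and 1 of 11 in A549. The shares of all genes called higher were 18.8%, 24.6% and 2.22%. CDKN1A, which encodes the inhibitor p21, went from 43.7 ± 6.4 to 165 ± 23 CPM in H460 (log2 fold change 1.90 ± 0.12, adjusted p = 7.51e-08) and from 136 ± 15 to 219 ± 8 in RKO (0.63 ± 0.16, adjusted p = 0.00971).

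The lines were checked against short marker lists of 4 genes each. The epithelial list summed to 103 to 195 CPM in RKO, 2473 to 3106 in A549 and 989 to 1286 in H460. These sums were mostly KRT8 and KRT18, and in RKO mostly KRT18. CDH1 was at 0.05 to 0.11 CPM in RKO and 0.42 to 0.63 in H460, against 65.6 to 104.9 in A549. EPCAM was at 4.54 to 6.13 CPM in RKO, 13.3 to 19.7 in A549 and 0.10 to 0.50 in H460. The lung list was at 0 to 0.07 CPM in RKO, with NKX2-1, SFTPB and SFTPC unread, at 3.46 to 5.21 in A549, and in H460 at 0.50 to 0.70 in normoxia and 4.14 to 4.22 in hypoxia, where NKX2-1 was called higher. The colon list was at 9.31 to 15.5 CPM in RKO, with CDX1 and VIL1 unread, at 0.70 to 1.48 in A549 and at 0.13 to 0.25 in H460. The mesenchymal list, mostly VIM, was at 10.5 to 14.6 CPM in RKO. It was at 1864 and 2203 CPM in A549 normoxia and 3350 and 4619 in hypoxia (lower and higher library), and at 1070 and 1158 against 4459 and 4810 in H460. The blood and endothelial list (2 genes) and the testis list reached at most 0.14 and 0.31 CPM.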

How the data were processed

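The libraries were 12 poly(A)+ RNA-seq samples, 2 in each of 6 groups. Per the labels and the methods of the study, the authors trimmed reads at the 3′ end, aligned them with TopHat2 2.0.13 to GRCh37/hg19, dropped poorly mapped reads, marked duplicates (Picard 1.129) and counted exon reads by strand with HTSeq 0.6.1. The authors deposited raw counts per gene, which were used as they stood, and RPKM (count per kilobase of model and per 1000000 counted reads), which served for levels compared between genes and as an alternative unit. Reads that fit several places or models were lost at these steps, which lowers the counts of near-identical histone genes. There were 0 unused sample columns.

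Counts were tested with edgeR 4.0.16 in R 4.3.3 (TMM, quasi-likelihood F test), per line for hypoxia against normoxia and jointly for differences between lines. All adjusted p values are from edgeR with Benjamini-Hochberg adjustment over all genes tested. The scripts were tested on simulated counts. Alternatives were DESeq2 1.42.0, RLE factors, library size, no filter, a replicate block, other thresholds, limma 3.58.1 on log2(RPKM + 0.1) and log2(RPKM + 1), and each library left out. A filter on the mean and a covariate of tail-less RNA were chosen after seeing the data. Hairpins were searched in GRCh37 and ends taken from the deposited models and GENCODE. The members and lists were chosen with earlier results of these data known. Genes are named by rule: replacement genes over the filter, the most abundant clustered genes, those with the largest calls per line and the smallest p between lines, and listed processing, replication and chaperone genes; HIST1H2AI, HIST2H2AC, HIST1H4C, HIST1H4D, HIST1H2AG, HIST1H2AL, HIST1H3G, HIST1H4I, TK1 and H1FX-AS1 were named after their values were seen. RN7SK, also listed, was not analysed here.

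Depth was 27350424 to 41757584 counted reads per library. The read floor of 3 covers counting error only.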

Additional observations from a re-analysis of the deposited data

Results flagged for a closer look

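The hypoxia effect differed between lines in the interaction test (edgeR, adjusted p under 0.05) for 10 named histone genes, and the widest difference between 2 lines is given for each as a difference of log2 fold changes. HIST1H4H stood 3.86 higher in A549 than in H460. HIST1H1C differed by -2.97 between RKO and H460, and HIST2H2BC by -1.11 between A549 and H460. HIST1H2BH differed by -1.73 ± 0.89 between RKO and A549, where it was hardly read, and that pair alone did not pass (adjusted p = 0.248), whereas RKO minus H460 did, at -1.45 ± 0.42 (adjusted p = 0.0179). For HIST1H3H the widest pair, RKO minus A549 at -1.41 ± 0.49, did not pass on its own either (adjusted p = 0.0887). Among the replacement genes, A549 minus H460 was -1.47 for H1F0, 1.00 for H2AFV, 0.77 for H2AFY and 1.14 for H2AFZ, and RKO minus H460 was -0.96 for H3F3B.

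The same test picked out 12 of the other named genes. A549 minus H460 was 1.16 for SLBP, 0.89 for LSM10, 2.31 for PCNA, 1.42 for MCM2, 1.15 for RRM2, -2.04 for CDKN1A, 1.84 for CHAF1A and 0.80 for HIRA. RKO minus H460 was 0.82 for NPAT, 1.33 for CASP8AP2 and 3.66 for CCNE2, and RKO minus A549 was 1.41 for HJURP. No cause was tested for any of these differences.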

How the results depend on the processing

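Counts of clustered genes called higher are small and shifted with several settings, though they stayed at 2, 2 and 7 in RKO, A549 and H460 with DESeq2. In RKO, 2 became 1 under limma with a pseudocount of 1 or an adjusted p under 0.05, and 0 at a fold change over 2. In A549, 2 became 1 with library size, under limma with either pseudocount and at an adjusted p under 0.05. In H460, 7 became 4 with library size, under limma with either pseudocount and at a fold change over 2. Clustered genes called lower in RKO were 27 without a filter, 11 at an adjusted p under 0.05 and 10 with the tail-less RNA covariate, and in H460 15 with that covariate, against 17 and 25. The clustered median in H460 was -1.38 with library size, -1.33 under limma with a pseudocount of 0.1 and -0.53 with the covariate, and the log2 ratio of summed clustered reads was 0.69 on TMM-scaled totals against 0.32. The interaction count was 13 without a filter, against 5.

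For replacement genes at a fold change over 2, RKO had 0 higher and 0 lower, and H460 2 lower. Their H460 median of -0.33 was -0.30 with DESeq2 (-0.3025) and RLE factors (-0.302), -0.68 with library size (-0.6847) and limma at 0.1 (-0.6814), -0.62 at 1 and -0.43 with the covariate. The log2 ratio of their summed reads in H460, -0.52, was -0.15 on TMM-scaled totals and -0.77 as a sum of RPKM, and in RKO -0.48 as a sum of RPKM against -0.37. With library size, 2075 of all H460 genes were called higher and 5758 lower, against 3467 and 3837.

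With the covariate, HIST1H2AE (0.0495), RMRP (0.26) and RPPH1 (0.51) changed sign in H460, and RMRP ranged from -4.12 to 4.17 in A549 with 1 library left out (0.88 without hypoxia replicate 1); the covariate is itself mostly RMRP and RPPH1 reads. Leaving out 1 library at a time gave 0 to 2 clustered genes higher and 0 to 20 lower in RKO, 1 to 3 and 0 to 1 in A549, and 5 to 7 and 12 to 26 in H460. For replacement genes it gave 0 to 1 higher in RKO and 0 to 1 lower in A549. The H460 medians ranged from -1.18 to -0.37 (clustered) and -0.41 to -0.27 (replacement), and the interaction counts from 2 to 12 (clustered) and 2 to 6 (replacement).

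Same-numbered samples deviated together (correlations 0.34, 0.34 and 0.11 in RKO, A549 and H460), but with 2 numbers per line and independent replicates this is only a hint. With the replicate block, clustered genes called lower were 25 in RKO and 25 in H460, those called higher 2, 2 and 7, and the interaction counts 4 and 4. Over all A549 genes the block gave 1189 called higher and 723 lower, against 316 and 65, and among the A549 lists it gave 2 replication genes (E2F1 and E2F2), 1 processing gene (LSM10) and 1 chaperone (ASF1A) called lower, and 4 cell cycle inhibitors and exit genes called higher. A549 counts over all genes were also 608 and 263 with DESeq2, 587 and 213 without a filter, 1083 and 752 without hypoxia replicate 1, 151 and 41 with library size, 131 and 49 under limma at 0.1 and 106 and 38 at 1. The causes of the changes above were not tested. The limit set by depth is plain for clustered genes, of which 9 had over 100 reads per library on average.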
